A study of Mus musculus with 20 samples.

Results

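The mouse Ms4a genes described here were Ms4a4c, Ms4a6b, Ms4a6c, Ms4a6d and Ms4a7, which are 5 of the 22165 genes in the count table. They were chosen by symbol, with Ms4a4c and Ms4a6b picked because both were lower at every time in macrophages given dimethyl itaconate (DI). The difference between DI and Ctrl cells is therefore given as a description of the members, with no p-value. Nothing is concluded from how many passed the threshold. The changes over time, on which that pick did not rest, are tested, although the members were chosen with earlier results of these data known. All 5 genes passed the filter on low counts. RNA was sequenced from wild-type C57BL/6 bone marrow-derived macrophages, which are precursor cells of mouse marrow matured in m-CSF for 7 days. DI cells received 250 µM dimethyl itaconate for 12 h before stimulation with LPS + IFNg and were sampled at 0, 1, 2, 4 and 6 h, while Ctrl cells were stimulated and sampled at the same times without it. Each of the 10 groups had 2 libraries, primed with oligo-dT and read near the 3′ end. The labels do not say whether these came from separate mice or cultures, so the p-values measure a spread between libraries that may be technical.

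Ms4a genes encode small proteins that cross the membrane several times, with both ends inside the cell. The best known relatives are Ms4a1, which encodes the B-cell antigen CD20, and Ms4a2, which encodes the beta chain of the high-affinity IgE receptor. Ms4a4c, Ms4a6b, Ms4a6c, Ms4a6d and Ms4a7 are expressed in mouse monocytes, macrophages or both, and Ms4a4c is known as an interferon-induced gene. The protein of Ms4a6d has been described as a partner of Vsig4 on mouse macrophages. Dimethyl itaconate is an electrophilic, cell-permeable derivative of itaconate that is known to activate the antioxidant factor NRF2, and LPS with IFNg drives macrophages into an inflammatory state.

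The members lie within 283.8 kb of chromosome 19, inside a block of related genes. On build GRCm38 the GENCODE annotation places Ms4a7 at chr19:11321039-11336146 on the minus strand and Ms4a4c at chr19:11404770-11427246 on the plus strand. Ms4a6c follows at chr19:11469366-11482192 and Ms4a6b at chr19:11516512-11531256, both on the plus strand. Ms4a6d lies at chr19:11586604-11604849 on the minus strand. All are protein-coding genes. Their identifiers are ENSMUSG00000024672 for Ms4a7, ENSMUSG00000024675 for Ms4a4c, ENSMUSG00000079419 for Ms4a6c, ENSMUSG00000024677 for Ms4a6b and ENSMUSG00000024679 for Ms4a6d.

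Ms4a6b and Ms4a6c, neighbouring members that were both lower in DI at every time, are shown because the 250 bases before their starts held identical stretches. The windows below are from RefSeq on GRCm38.p6, Ms4a6b at chr19:11518309-11518558 and Ms4a6c at chr19:11469118-11469367, both on the plus strand and written 5′ to 3′. The RefSeq start of Ms4a6b lies inside the GENCODE span of the gene. Capitals mark the runs of at least 12 bases that are identical in both.
Ms4a6b: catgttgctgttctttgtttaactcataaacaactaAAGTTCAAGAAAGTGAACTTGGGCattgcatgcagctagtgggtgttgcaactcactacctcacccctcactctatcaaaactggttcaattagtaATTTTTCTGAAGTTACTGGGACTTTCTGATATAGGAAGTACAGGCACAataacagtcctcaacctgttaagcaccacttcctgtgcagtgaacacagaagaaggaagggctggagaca
Ms4a6c: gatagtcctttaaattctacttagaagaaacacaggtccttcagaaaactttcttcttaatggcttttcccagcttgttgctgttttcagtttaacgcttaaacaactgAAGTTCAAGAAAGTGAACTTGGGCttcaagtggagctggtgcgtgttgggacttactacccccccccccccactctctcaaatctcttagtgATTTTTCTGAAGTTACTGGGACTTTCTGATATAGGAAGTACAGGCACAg
The shared runs were 24 and 48 bases long, together 72 of the 250 bases. Neither was found in the window of any other of the 27025 genes with windows, and Ms4a6d had none to search.

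Windows were found for 4 of the 5 members, Ms4a7 having a pair of them and Ms4a6d none. What is said of members' windows therefore leaves out Ms4a6d. Both strands were searched. GAAANNGAA, a short form of the interferon-stimulated response element core, occurred in the Ms4a6b and Ms4a6c windows and in both Ms4a7 windows. Of all 32851 windows, 7.13% held it. In Ms4a6b and Ms4a6c this match lay inside the 24-base run. That letter string was chosen after the windows had been seen. The full core of the interferon-stimulated response element, which has 1 more A at its end and each match of which also matches the short form, was in no member's window and in 2.98% of all windows. Neither TTCNNNGAA, the interferon gamma activated site (7.02% of windows), nor GAGGAAG, a PU.1 box (10.6%), nor TGACNNNGC, the antioxidant response element core (10.2%), occurred in a member's window. The AP-1 site TGANTCA (6.75%) was in 1 Ms4a7 window, and a loose NF-kB site (45.8%) was in those of Ms4a4c and Ms4a6c. These are matches of letters and not mapped sites.

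Library totals were 3982073 to 6725447 counts in DI and 3655977 to 8938983 counts in Ctrl. DI libraries had 11143 to 12356 genes at 0, against 9301 to 10859 in Ctrl. From the share of genes at 0 among those with 4 to 12 expected counts, 3.58 to 10.2 counts stood for each captured molecule in DI and 1.82 to 3.31 in Ctrl, so DI values rested on fewer molecules, down to about 70.3 for Ms4a4c in replicate 2 of DI at 2 h. Expected counts were means over the other libraries of the same treatment at all times. Genes that were low at some times only can therefore raise the estimate, so molecule numbers are rough. The cells carried macrophage markers in both treatments. Cd68, a lysosomal protein of macrophages, was at 272 to 669 CPM, that is, counts scaled to a common library size, in DI and 424 to 738 CPM in Ctrl. All 12 targets of NRF2 on the list used here were called higher in DI at 0 h and again at 6 h (edgeR quasi-likelihood test, adjusted p below 0.05), when 1.43% and 5.24% of all genes were, among them the cystine carrier Slc7a11 with a log2 fold change of 4.98 ± 0.35 (SE) at 0 h.

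Ms4a4c was lower in every DI library than in any Ctrl library. CPM values are scaled by edgeR's TMM factors and are not corrected for length, so levels are compared between samples and not between genes. At 0 h, before stimulation, Ms4a4c had 116 and 99.4 CPM in DI against 329.9 and 342 CPM in Ctrl. At 1 h it had 144 and 124 CPM in DI against 620.3 and 486 CPM in Ctrl, and at 2 h it had 187 and 128 CPM in DI against 536 and 690.3 CPM in Ctrl. At 4 h the values were 277 and 203 CPM in DI against 975 and 936 CPM in Ctrl, and at 6 h they were 328 and 268 CPM in DI against 1112 and 1084 CPM in Ctrl. The highest DI library, at 6 h, thus lay just below the lowest Ctrl library, at 0 h. DI means were 32.1% of the Ctrl mean at 0 h and between 24.2% and 27.2% at the later times, which is a log2 fold change of -1.64 ± 0.27 (SE) at 0 h, -2.05 ± 0.27 at 1 h and -1.88 ± 0.27 at 6 h.

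Ms4a6b was also lower in DI at all 5 times without overlap. It had 215 and 209 CPM in DI against 419 and 616.5 CPM in Ctrl at 0 h, and 322 and 189 CPM in DI against 581 and 598 CPM in Ctrl at 1 h. At 2 h it had 310.5 and 291 CPM in DI against 609.7 and 855 CPM in Ctrl. At 4 h there were 488 and 375 CPM in DI against 867 and 1272 CPM in Ctrl, and at 6 h 382 and 482 CPM in DI against 1326 and 1137 CPM in Ctrl. Across times the ranges met, since 8 of the 10 DI libraries were below the lowest Ctrl library. DI means stood at 35.1% to 43.3% of Ctrl, with log2 fold changes of -1.29 ± 0.29 at 0 h and -1.51 ± 0.30 at 6 h (SE).

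Ms4a6c showed the same order. Although not among the genes that prompted the choice, it was chosen with earlier results of these data known and is no independent support. It had 733 and 805 CPM in DI against 1530.4 and 1847 CPM in Ctrl at 0 h, and 1113 and 827 CPM in DI against 2216 and 2917 CPM in Ctrl at 1 h. At 2 h it had 925 and 1259 CPM in DI against 3169 and 2924 CPM in Ctrl. At 4 h there were 962 and 1412 CPM in DI against 3255 and 3771 CPM in Ctrl, and at 6 h 891 and 1157 CPM in DI against 4423 and 3575 CPM in Ctrl. All 10 DI libraries were below all 10 Ctrl libraries, and the DI mean was 45.5% of the Ctrl mean at 0 h and 25.6% at 6 h. The log2 fold change was -1.13 ± 0.27 at 0 h and -1.97 ± 0.27 at 6 h (SE).

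Ms4a6d was lower in DI at 4 of the 5 times. It had 258 and 187 CPM in DI against 391 and 344 CPM in Ctrl at 0 h, and 268 and 274 CPM in DI against 374 and 423 CPM in Ctrl at 1 h. At 2 h the groups overlapped, with 985 and 354 CPM in DI against 373 and 385 CPM in Ctrl. There were 454 and 402 CPM in DI against 1504 and 718 CPM in Ctrl at 4 h, and 660.5 and 406 CPM in DI against 756 and 917 CPM in Ctrl at 6 h. The log2 fold change ran from -1.38 ± 0.37 at 4 h to 0.82 ± 0.37 at 2 h (SE), and the 2 h value rested on replicate 1 of DI, without which it was -0.10. The largest gaps between replicates of this gene were 2.78-fold, in DI at 2 h, and 2.09-fold, in Ctrl at 4 h.

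Ms4a7 was the member whose groups overlapped at most times. It was clear of overlap at 0 h, with 1069 and 1333 CPM in DI against 2385 and 1490.2 CPM in Ctrl. It had 2047 and 1659 CPM in DI against 2032 and 1915 CPM in Ctrl at 1 h, and 1734 and 2298 CPM in DI against 3898 and 1836 CPM in Ctrl at 2 h. At 4 h it had 1663 and 3893 CPM in DI against 1942 and 1916 CPM in Ctrl, and at 6 h 1431 and 1881 CPM in DI against 2289.95 and 1455 CPM in Ctrl. Replicates differed by 2.34-fold in DI at 4 h and by 2.12-fold in Ctrl at 2 h, more than the group means differed at any time. The log2 fold change lay between -0.69 ± 0.36 at 0 h and 0.53 ± 0.36 at 4 h (SE). With each library left out it was -0.22 to 1.01 at 4 h, and its sign also changed at 1, 2 and 6 h.

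**Figure D1:**
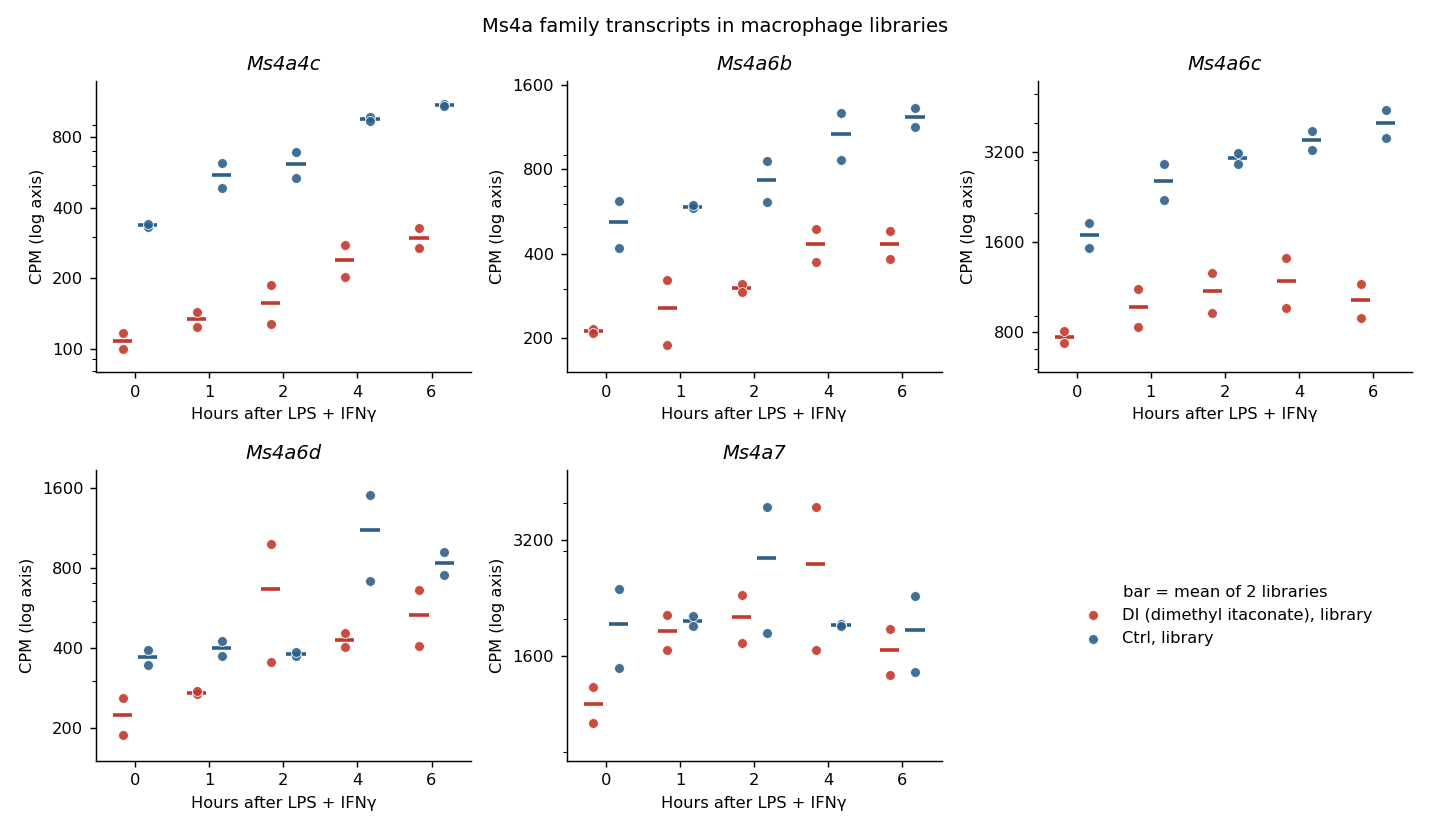
CPM (log axis) of the 5 Ms4a genes in each library against hours after LPS + IFNg, with DI in red left of Ctrl in blue and a bar at the mean of 2 libraries. Ms4a4c, Ms4a6b and Ms4a6c are apart at all 5 times, Ms4a6d overlaps at 2 h and Ms4a7 overlaps at 4 of the 5 times.

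Under the threshold used throughout, an adjusted p below 0.05 over the 10663 genes tested, the members called lower in DI numbered 4 at 4 h and 3 at each of the other times, and none was called higher. Of all genes tested, 2.17%, 3.03%, 3.97%, 6.00% and 8.95% were called lower at 0, 1, 2, 4 and 6 h. Ms4a4c, Ms4a6b and Ms4a6c made up the 3, and Ms4a6d joined them at 4 h. Nothing is read from these counts, because the choice of members used the same contrast. The count was 1 at 0 h without replicate 1 or 2 of DI or replicate 2 of Ctrl, 1 at 1 h without replicate 2 of DI, and 2 at 4 h without replicate 2 of DI. Likewise, 4.94% of the genes tested had DI below Ctrl without overlap at all 5 times, as 3 members did, and 0.722% had all 10 DI libraries below all 10 Ctrl libraries, as Ms4a4c and Ms4a6c did.

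**Figure D2:**
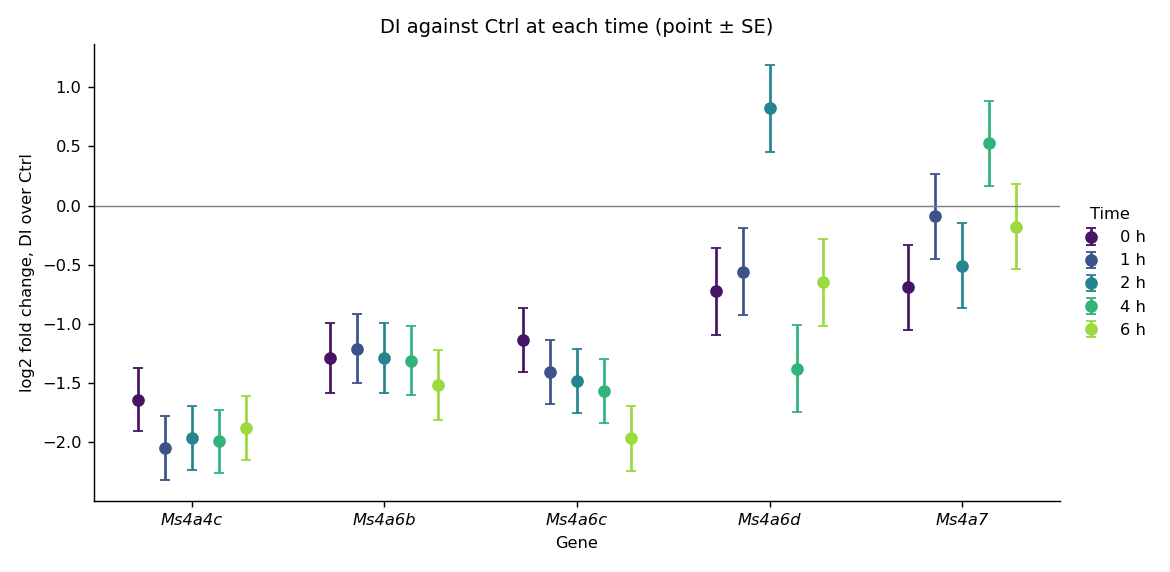
Log2 fold change of DI over Ctrl for each member at 0, 1, 2, 4 and 6 h, as points with SE bars from the edgeR fit. Ms4a4c, Ms4a6b and Ms4a6c lie below -1 at every time, while Ms4a6d and Ms4a7 lie on both sides of 0.

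In Ctrl cells, stimulation was followed by higher Ms4a4c, Ms4a6b, Ms4a6c and Ms4a6d, with no change called for Ms4a7. No member was called at 1 h, 2 were called higher at 2 h, and 4 were called higher at 4 h and at 6 h, when 3.65%, 9.13%, 14.7% and 15.2% of all genes were. At 1 h Ms4a4c and Ms4a6c had an unadjusted p below 0.05 in edgeR, limma-voom and DESeq2, and DESeq2 also called Ms4a4c. Ms4a4c rose by 0.87 ± 0.26 on the log2 scale at 2 h (SE, adjusted p = 0.028) and by 1.71 ± 0.27 at 6 h (adjusted p = 2.28e-05). Ms4a6c rose by 0.85 ± 0.27 at 2 h (adjusted p = 0.035) and by 1.24 ± 0.27 at 6 h (adjusted p = 0.00093). Ms4a6b passed the test at 4 h with 1.05 ± 0.29 (adjusted p = 0.0093) and at 6 h with 1.25 ± 0.29 (adjusted p = 0.0021). The calls of Ms4a4c at 4 and 6 h and of Ms4a6c at 6 h held whichever library was left out. At 2 h no member was called without replicate 1 or 2 of Ctrl at 0 h or replicate 2 at 2 h, and 1 was called without replicate 1 at 2 h. The count was 2 at 4 h without replicate 1 at 0 h or replicate 2 at 4 h, and 2 at 6 h without replicate 1 at 0 h.

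Ms4a6d had the most abrupt course in Ctrl. It stood at 0.04 ± 0.36 over 0 h on the log2 scale at 2 h (adjusted p = 0.97), rose by 1.59 ± 0.37 at 4 h (adjusted p = 0.0022) and was still higher at 6 h, by 1.19 ± 0.37 (adjusted p = 0.018). The step between 2 h and 4 h was 1.55 ± 0.37 (SE, adjusted p = 0.013). It was the only step between neighbouring times called for any member in Ctrl, where 3.09% of all genes were called higher between 2 h and 4 h. That call was lost when replicate 1 or 2 at 2 h or replicate 1 at 4 h was left out. Ms4a7 was at -0.05 ± 0.36 on the log2 scale at 6 h (adjusted p = 0.94).

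In DI cells, 1 member was called higher at 2 h and 3 each at 4 h and 6 h, but none at 1 h, while 3.29%, 7.89%, 11.4% and 11.2% of all genes were called higher at 1, 2, 4 and 6 h. No member had an unadjusted p below 0.05 at 1 h, and limma-voom and DESeq2 called none there either. Ms4a4c rose by 1.16 ± 0.27 on the log2 scale at 4 h (SE, adjusted p = 0.0027) and by 1.47 ± 0.27 at 6 h (adjusted p = 0.00024). Ms4a6b rose by 1.03 ± 0.29 at 4 h (adjusted p = 0.015) and by 1.03 ± 0.29 at 6 h (adjusted p = 0.014). Ms4a6c passed the test at no time in DI, with 0.63 ± 0.27 at 4 h (adjusted p = 0.104) and 0.41 ± 0.26 at 6 h (adjusted p = 0.295). The direct test below called no difference between its changes in DI and in Ctrl. The calls of Ms4a4c held whichever library was left out, while the count of members fell to 1 at 4 h without replicate 1 or 2 of DI at 0 h, and to 1 at 6 h without replicate 2 at 0 h.

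Ms4a6d in DI rose by 1.59 ± 0.37 on the log2 scale at 2 h (SE, adjusted p = 0.0050), stood at 0.94 ± 0.37 at 4 h (adjusted p = 0.077) and rose by 1.26 ± 0.37 at 6 h (adjusted p = 0.017). Its step between 1 h and 2 h was 1.31 ± 0.37 (adjusted p = 0.043), when 2.81% of all genes were called higher. It was the only step called for a member in DI. Among the steps with no call, an unadjusted p below 0.05 was reached by Ms4a4c in DI between 2 h and 4 h in edgeR, limma-voom and DESeq2, and by Ms4a7 in DI between 4 h and 6 h in edgeR alone. The 2 h value rested largely on 1 library, being 0.74 without replicate 1 of DI at 2 h, which ended both calls. Ms4a7 rose by 1.21 ± 0.36 at 4 h (adjusted p = 0.020), and without replicate 2 of DI at 4 h the value was 0.47 and the call was lost.

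**Figure D3:**
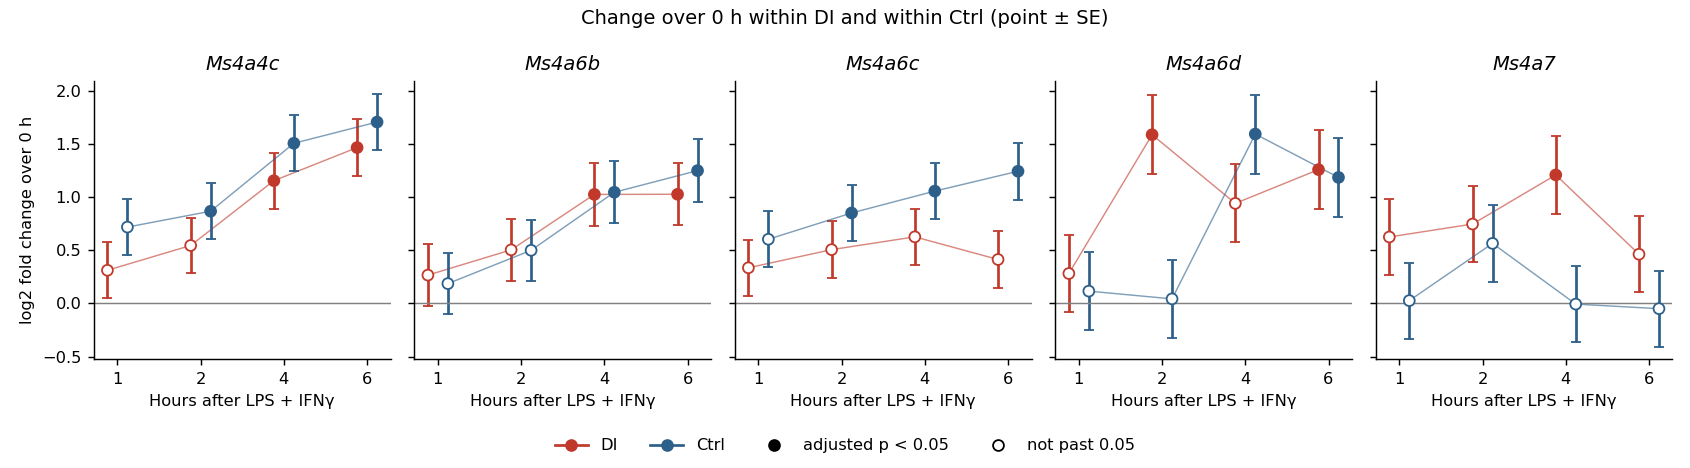
Log2 fold change over 0 h of each member at 1, 2, 4 and 6 h within DI (red) and within Ctrl (blue), as points with SE bars, filled where the adjusted p of the edgeR quasi-likelihood test was below 0.05. Ms4a4c and Ms4a6b follow like courses in both, Ms4a6c is filled in Ctrl alone, Ms4a6d is highest at 2 h in DI and at 4 h in Ctrl, and Ms4a7 is filled once, in DI at 4 h.

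The size of the changes over time depended on the scaling. The TMM factors lay between 0.73 and 1.40 and were smaller at 4 and 6 h than at 0 h in both treatments. With library totals in their place the median of all genes shifted by -0.55 in DI and by -0.82 in Ctrl on the log2 scale at 6 h against 0 h. On that scale no member was called higher at 4 h in either treatment, Ms4a4c being at 0.54 in DI and 0.64 in Ctrl. At 6 h Ms4a4c was called higher, by 0.91 in DI and 0.89 in Ctrl, while Ms4a6b and Ms4a6d kept their sign but were not called. Ms4a6c changed sign at 6 h in DI, to -0.14, and was 0.42 in Ctrl without a call. Ms4a7 was then called lower in Ctrl at 4 h, by -0.87, and at 6 h, by -0.88, and was at -0.09 in DI at 6 h. The median of all genes on that scale was -0.65 in DI and -0.99 in Ctrl at 6 h. In the contrast of DI with Ctrl it shifted by at most 0.19.

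A direct test of whether the change over 0 h differed between DI and Ctrl called no member at 1, 2, 4 or 6 h with edgeR, limma-voom or DESeq2. Of all genes, 0.253%, 0.356%, 0.760% and 1.55% were called in either direction at these times with edgeR. An unadjusted p below 0.05 was reached by no member at 1 h and, in each of the 3 tools, by Ms4a6d at 2 h, Ms4a7 at 4 h and Ms4a6c at 6 h. The difference, DI change minus Ctrl change on the log2 scale, was 1.54 ± 0.52 for Ms4a6d at 2 h (SE, adjusted p = 0.32) and 1.22 ± 0.51 for Ms4a7 at 4 h (adjusted p = 0.378). It was -0.83 ± 0.37 for Ms4a6c at 6 h (adjusted p = 0.385). For Ms4a4c it was -0.24 at 6 h with a 95% interval of -0.96 to 0.48, and for Ms4a6b it was -0.22 with an interval of -1.03 to 0.58. For both genes the choice had fixed the sign of DI against Ctrl at each time, though not its change between times. The Ms4a6d difference at 2 h was called with no filter on low counts, and also when the DI libraries numbered 2 at 2, 4 and 6 h were left out, in which more genes stood at 0 than in any other. That omission keeps only replicate 1 of DI at 2 h, the higher of the pair, and without replicate 1 the difference was 0.62 with no call. The Ms4a7 difference at 4 h was 0.48 without replicate 2 of DI at 4 h.

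Among the members, Ms4a6b and Ms4a6c had the most alike profiles over the 10 groups. A profile takes in the gap between DI and Ctrl, on which Ms4a4c and Ms4a6b were picked. Likeness of profiles is therefore a description and not a sign of a shared time course. After centring each gene's mean log2 CPM over the 10 groups, they differed by a root mean square of 0.26 on the log2 scale, although the 10 genes nearest to Ms4a6b were all nearer than Ms4a6c. Ms4a4c differed from Ms4a6b by 0.34 and from Ms4a6c by 0.39, and the most unlike pair was Ms4a4c and Ms4a7, at 1.04. Ms4a4c spanned 3.35 on the log2 scale between its lowest and highest group, Ms4a6b 2.53, Ms4a6c 2.37, Ms4a6d 2.24 and Ms4a7 1.16.

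The same measure, over DI and Ctrl groups together, gave the nearest profiles among 4961 named genes averaging 20 CPM or more. Nearest to Ms4a4c were Isg20, an interferon-induced exonuclease, at 0.23, then Hmgn5 at 0.26 and the chemokine Ccl8 at 0.31, while the median gene was at 1.17. For Ms4a6b they were Cnp at 0.16, Ifi44 at 0.18 and Mov10, an RNA helicase, at 0.21. For Ms4a6c they were Nfxl1 at 0.21, Hmgn5 at 0.22 and the transporter Slc12a9 at 0.24. Ms4a6d was nearest to Coro2a at 0.19, Oas1a, an antiviral synthetase, at 0.21 and Ly96, the MD-2 partner of the LPS receptor, at 0.22. Ms4a7, which varied least, was nearest to the kinases Pak2 at 0.09 and Nek7 at 0.16 and to Pcm1 at 0.16. Isg20 had 370 ± 60.7 CPM in DI at 6 h against 1648 ± 63.5 CPM in Ctrl, and 135 ± 15.7 CPM in DI at 0 h against 290.1 ± 37.5 CPM in Ctrl (SD, n = 2 each).

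Of 15 other Ms4a genes sought, 14 were in the table and 5 passed the filter on low counts. Ms4a14, whose gene is the neighbour of Ms4a7, was the most abundant, at 34.8 to 124.6 CPM in DI and 35.9 to 123 CPM in Ctrl, and was called at no time in DI against Ctrl. Ms4a4b, known in mouse from T cells, was at 0.91 to 10.1 CPM in DI and 8.34 to 17.5 CPM in Ctrl. It was lower in DI than in Ctrl at 2 h, with a log2 fold change of -2.64 ± 0.67 (SE, adjusted p = 0.017). At its lowest in DI, at 2 h, it had 4 counts, estimated as 0.82 molecules, a rough figure since any count needs a whole molecule. Ms4a4a, a partner of the receptor dectin-1, was lower in DI than in Ctrl at 6 h, at -2.30 ± 0.64 (adjusted p = 0.016), where it had 5.66 CPM on average in DI and 28.0 CPM in Ctrl. By the same estimate it had at most 7.84 molecules in any DI library. It rose by 1.88 ± 0.61 in Ctrl at 6 h against 0 h (adjusted p = 0.025). Ms4a1 and Ms4a3 were called at no time in DI against Ctrl, and Ms4a1 reached at most 3.61 CPM in DI and 2.64 CPM in Ctrl.

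Low counts limited the rest of the family. Ms4a2, Ms4a4d, Ms4a5, Ms4a8a, Ms4a12 and Ms4a15 stayed at or below 3.40 CPM in every library, and Ms4a10, Ms4a13 and Ms4a18 had no count. The more distant relatives Tmem176a and Tmem176b, which encode cation channel proteins of intracellular membranes, passed the filter. Tmem176b averaged 7.77 CPM in DI and 36.5 CPM in Ctrl at 4 h. Its log2 fold change of DI over Ctrl was -2.22 ± 0.57 at 4 h (SE, adjusted p = 0.013) and -1.96 ± 0.55 at 6 h (adjusted p = 0.017). At its lowest in DI, at 4 h, Tmem176b had 8 counts, estimated roughly as 0.78 molecules. Tmem176a was not called.

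**Figure D4:**
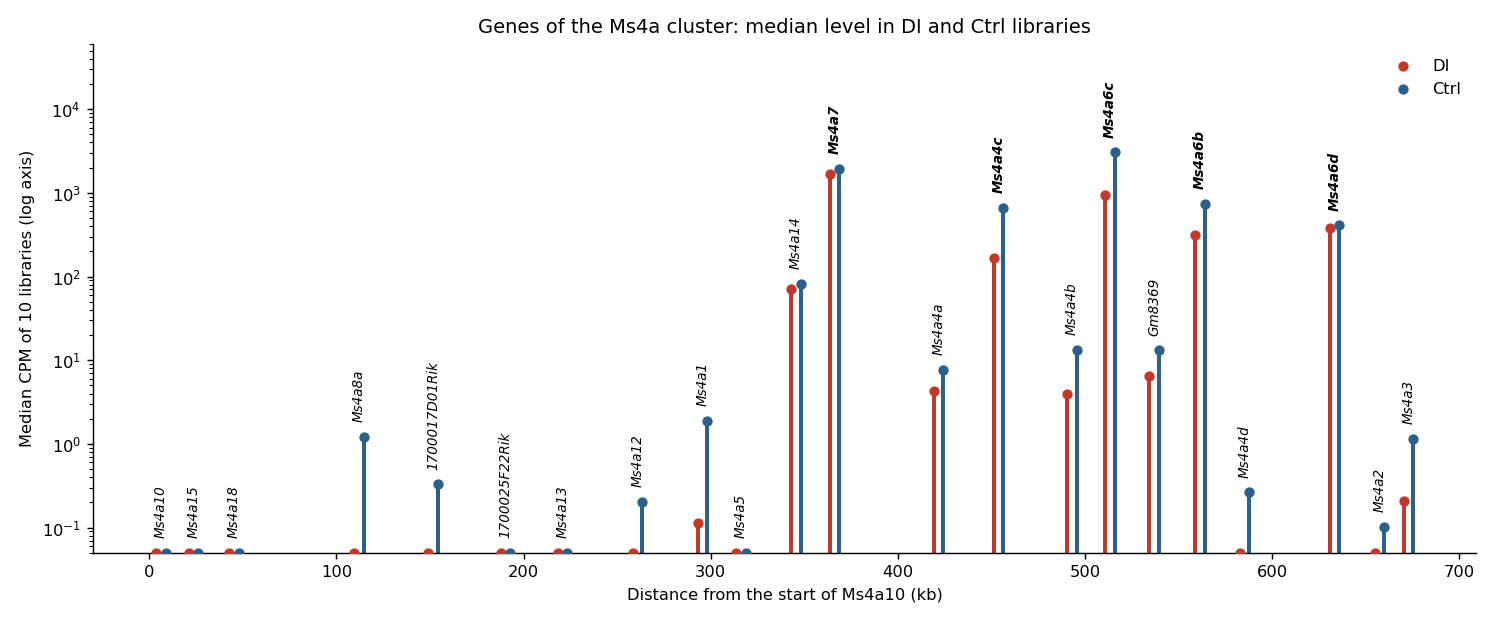
Median CPM (log axis) of the genes of the Ms4a block that are in the table, over 10 DI libraries (red) and 10 Ctrl libraries (blue), against distance in kb from the start of Ms4a10, with members in bold and a median of 0 drawn on the lower edge at 0.05. Of the genes of the block, the 5 members and Ms4a14 stand apart at the top, Ms4a14 lowest of them with 70.7 CPM in DI and 81.0 CPM in Ctrl.

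The count of a read to 1 gene can be uncertain where family members are alike. Among runs of 50 bases in the last 500 bases of annotated transcripts, the part near the poly(A) tail where oligo-dT primed the reads, 11.1% of those of Ms4a4c were shared with other genes, nearly all with Ms4a4b. For Ms4a6c 7.76% were shared, mostly with Ms4a6b, and for Ms4a6b 4.31%, with Ms4a6d, Ms4a6c and a pseudogene. None of those of Ms4a6d or Ms4a7 was shared. Genes on the opposite strand are annotated across Ms4a6c for 12027 bases and over short stretches of Ms4a4c and Ms4a6b. The one at Ms4a4c is a processed pseudogene, and none of these genes is in the count table. Whether counting used the strand is not given in the sources used here.

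Interferon-stimulated genes were lower in DI in many cases, also before stimulation. Among all genes tested, 2.17% were called lower in DI at 0 h and 8.95% at 6 h. Of 32 genes on the type I interferon list, 11 were called lower in DI at 0 h and 16 at 6 h, with none higher, and their median log2 fold change was -0.61 at 0 h and -0.87 at 6 h, while that of all genes was -0.05 and -0.03. Mx1, an antiviral GTPase, was at -1.83 ± 0.27 at 0 h (SE, adjusted p = 8.08e-05), and Usp18, a brake on interferon receptor signalling, at -2.05 ± 0.30 at 6 h (adjusted p = 2.56e-05). Of 20 genes on the IFNg list, 4 were called lower at 0 h and 7 at 6 h, among them Iigp1, an immunity-related GTPase, at -2.55 ± 0.29 at 0 h (adjusted p = 2.52e-06). The type I count was 3 at 0 h without replicate 1 of DI, 4 without replicate 2 of Ctrl and 5 without replicate 1 of Ctrl, and at 6 h it was 9 without replicate 1 of Ctrl and 10 without replicate 2 of DI.

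Monocyte markers moved with the members. Their summed level was 145 to 244 CPM in DI and 495 to 802 CPM in Ctrl, with all 6 genes detected in both, and 3 of the 6 were called lower in DI at 0 h and 3 at 6 h. Ccr2, the chemokine receptor of monocytes, was at 33.7 to 138 CPM in DI and 256 to 620.1 CPM in Ctrl and had a log2 fold change of -2.15 ± 0.26 at 0 h (SE, adjusted p = 4.25e-06). The 16 macrophage markers summed to 5108 to 8836 CPM in DI and 7792 to 12103 CPM in Ctrl. Of these, 1 was called lower at 0 h, the integrin Itgam, and 7 lower and 2 higher at 6 h. Among all genes tested, 2.17% were called lower in DI at 0 h, and 8.95% lower and 5.24% higher at 6 h. In bulk RNA, fewer cells of a type and less RNA per cell cannot be told apart, and the part of the monocyte markers in the Ms4a differences was not tested.

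The summed levels of markers of other cell types overlapped between the treatments. They were 316 to 596 CPM in DI and 336 to 597 CPM in Ctrl for neutrophils. For fibroblasts they were 6.10 to 34.8 CPM in DI and 34.5 to 55.3 CPM in Ctrl, which met only at the edge. Dendritic cell markers summed to 7.26 to 25.3 CPM in DI and 11.2 to 54.0 CPM in Ctrl. Mast cell and basophil markers summed to 0 to 7.49 CPM in DI and 1.41 to 8.83 CPM in Ctrl. B-cell markers were at 0 to 4.25 CPM in DI and 1.68 to 5.69 CPM in Ctrl, and T and NK cell markers at 0 to 2.26 CPM in DI and 0.50 to 19.5 CPM in Ctrl. The part of the fibroblast markers in the Ms4a differences was not tested. Cd3e, Ncr1, Fcer1a and Cd209a were at 0 in all libraries.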

How the data were processed

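Whole-number read counts per gene were analysed as the authors deposited them, in 1 table of 22165 genes and 20 libraries. Per the labels' protocols, libraries were made from the 3′ end with oligo-dT and barcoded before pooling. STAR, HTSeq, DESeq2 and mm10 are named in the submitters' processing notes, and their versions, roles and the strand setting are not given in the sources used here. No column lacked a sample.

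Groups were taken from the sample titles. The members and gene lists were chosen with earlier results of these data known. Counts were filtered with filterByExpr (10663 genes kept), scaled by TMM and fitted with edgeR 4.0.16 (glmQLFit, robust, 1 coefficient per group over all 20 libraries) in R 4.3.3. P-values were Benjamini-Hochberg adjusted over all genes tested, with calls at 0.05. The SE is the absolute log2 fold change divided by the square root of F, and a 95% interval is 1.96 SE to either side. Limma 3.58.1 (voom) and DESeq2 1.42.0 were alternatives, beside other scalings, filters, sets of samples, a replicate block, counts divided by reads per molecule, and each library left out. The fits were tested on simulated data. Besides the members, the text names other family genes with counts and up to 3 genes per list by smallest p. It also names each member's 3 genes of nearest profile (root mean square difference of centred group means of log2 CPM, prior count 2). Some marker genes and ranges are given as checks of cell type and were chosen after their values were seen. Sequence windows came from RefSeq (GRCm38.p6) and positions from GENCODE on GRCm38. PCR duplicates could not be removed, so counts exceed the molecules behind them.

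Over all genes tested, the levels of libraries sharing a replicate number did not deviate together. Over 45 pairs of groups the correlation of their deviations was -0.143 to 0.113, above 0.1 in 2 pairs. The numbers were therefore not taken to pair the samples. In DI the number did go with library quality. Replicate 2 there had more genes at 0 and more counts per captured molecule than replicate 1 at every time. Counts per molecule were 5.65 against 3.58 at 0 h and 9.54 against 5.88 at 6 h.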

Additional observations from a re-analysis of the deposited data

How the results depend on the processing

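The causes of the changes below were not tested. Only larger shifts of a count are listed, and small ones, as from 4 to 3, are left out. With the replicate block, no count of members called shifted that far. Among the lists only that of macrophage markers lower at 0 h did, to 2. It was also 2 with library totals, no filter, counts per molecule, limma-voom and DESeq2. With only the groups compared in the fit, the counts were 0 members, 1 type I, 2 IFNg, 1 monocyte and 0 macrophage genes lower in DI at 0 h, 4 macrophage genes at 6 h, 0, 0 and 1 members over time in DI at 2, 4 and 6 h, and 0 between 1 and 2 h. Library totals and the omission of 3 DI libraries were tried after seeing the data. Library totals gave 0, 1 and 2 members in Ctrl at 2, 4 and 6 h (Ms4a7 lower at 4 h, Ms4a7 lower and Ms4a4c higher at 6 h), 0 and 1 in DI at 4 and 6 h, 0 in either step, and 4 IFNg and 4 macrophage genes lower at 6 h. Omission gave 4 macrophage genes lower at 6 h and 1 member in the difference of responses at 2 h, as no filter did (1). DESeq2 called 1 member in Ctrl at 1 h, limma-voom 0 in the DI step, and TMM from genes of at least 32 CPM 0 in Ctrl at 2 h and 1 in DI at 4 h. With that TMM the calls of Ms4a6b at 4 h and Ms4a6d at 6 h in Ctrl were also lost. That TMM shifted the median of all genes by -0.20 to -0.34 in Ctrl at 2 to 6 h and by -0.13 to -0.24 in DI, and library totals by -0.30 to -0.86 in Ctrl and by -0.23 to -0.61 in DI.

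With each library left out, members called in DI against Ctrl numbered 1 to 3 at 0 h and at 1 h, 2 to 3 at 2 h and at 4 h, and 3 at 6 h. Over time they numbered 0 to 1, 2 to 4 and 2 to 4 in Ctrl at 2, 4 and 6 h, 0 to 1, 1 to 2 and 1 to 2 in DI, and 0 to 1 in either step. Genes lower in DI numbered 3 to 8 (0 h) and 9 to 11 (6 h) for type I, 3 to 5 and 4 to 5 for IFNg, 1 to 3 and 2 to 3 for monocyte and 0 to 1 and 3 to 6 for macrophage genes.

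Signs changed only for values that were not called. In Ctrl over 0 h, library totals gave -0.12 for Ms4a6b, -0.19 for Ms4a6d and -0.28 for Ms4a7 at 1 h, and -0.065, -0.53 and -0.012 at 2 h. TMM from high genes gave -0.059 for Ms4a7 at 1 h and -0.15 for Ms4a6d at 2 h. Ms4a7 was 0.029 at 4 h with limma-voom and 0.031 with only the groups compared, which gave 0.00036 at 6 h. In DI at 6 h, library totals gave -0.14 for Ms4a6c and -0.093 for Ms4a7. The difference of responses of Ms4a6b was -0.0097 with limma-voom and -0.018 with only the groups compared at 1 h. At 2 h it was -0.011 with DESeq2 size factors and with DESeq2, -0.014 with limma-voom and -1.0e-04 with only the groups compared. At 4 h it was 0.081 with TMM from high genes, 0.23 with library totals, 0.048 with only the groups compared and 0.16 on omission. Library totals gave 0.037 for Ms4a6b and 0.023 for Ms4a4c at 6 h, and omission -0.034 for Ms4a7 at 2 h. In DI against Ctrl, Ms4a7 reached -0.22 at 4 h and 0.031 at 6 h among such settings. Leaving out each library gave, in Ctrl, -0.069 to 0.49 for Ms4a6b and -0.28 to 0.40 for Ms4a7 at 1 h, -0.052 to 0.13 for Ms4a6d and -0.081 to 1.00 for Ms4a7 at 2 h, and -0.31 to 0.37 at 4 h and -0.42 to 0.32 at 6 h for Ms4a7. It gave -0.17 to 0.60 for Ms4a6b in DI at 1 h. In DI against Ctrl it gave -0.096 to 1.37 for Ms4a6d at 2 h. For Ms4a7 in that contrast it gave -0.25 to 0.046 at 1 h and -0.96 to 0.13 at 2 h. At 4 h it gave -0.22 to 1.01 and at 6 h -0.47 to 0.18 for Ms4a7. For the difference of responses it gave, for Ms4a6b, -0.35 to 0.42, -0.30 to 0.27, -0.32 to 0.29 and -0.52 to 0.032 at 1, 2, 4 and 6 h, for Ms4a6d -0.046 to 0.42 at 1 h and -0.32 to 0.38 at 6 h, and for Ms4a7 -0.26 to 0.82 at 2 h.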
